A study of Mus musculus with 8 samples.

Results

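The genes described here encode the surface receptors, CD antigens and lysozymes by which leukocytes sense their surroundings and by which their types are told apart. They were taken by name, as protein-coding genes whose symbol begins with Cd and a digit, Fcgr, Fcer, Ly6, Clec, Siglec, Tlr and a digit, Lilr, Pilr, Trem or Lyz, together with a few single genes such as Selp and Ptprc, and without Cd44, Cd24a, Cd38, Cd74, Cd2ap and the Cd2bp genes. Of 189 genes with such names, 96 stood in rows of the deposited count table that held 8 counts, as many as the table names libraries, among 35880 such rows of any kind. These 96 genes are the members. The other 93 stood in rows of 10 values, which could not be assigned to 8 libraries, and were not analysed here. They include Ly6g, Cd177, Clec4d, Clec4e, Cd68, Fcer1g, Fcgr3, Lyz1, Tlr2, Tlr4, Cd3d, Cd3e, Cd9 and Sele, so that several defining genes of neutrophils, macrophages and T cells are outside what follows.

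Injured kidney is entered by neutrophils and monocytes from the blood, while resident macrophages, dendritic cells and a small number of lymphocytes are present in the healthy organ. Toll-like receptors and C-type lectins bind microbial products or products of dying cells, Fc receptors bind antibody, and paired activating and inhibitory receptors of the Trem, Cd300, Lilr and Siglec families set how strongly a myeloid cell responds. Several of these genes are not restricted to leukocytes. Tetraspanins such as Cd63, Cd81 and Cd82 are made by most cells, Ly6a and Cd36 by endothelial and other cells, and some genes share only a name with the leukocyte antigens, as Cd3eap, which encodes a subunit of RNA polymerase I.

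Whole kidneys of 8 wild-type mice were profiled by bulk RNA sequencing, 4 as controls and 4 after cisplatin, a platinum compound used against tumours whose main toxicity is to the proximal tubule. The study's methods describe male C57/BL6J mice whose age is not given, with saline injections for controls, a single intraperitoneal cisplatin dose of 23 mg/kg, and kidneys taken 72 h after cisplatin. The labels number the controls 1, 2, 3 and 5 and the cisplatin-treated kidneys 1, 3, 4 and 6, and each library is a different mouse. Over the usable rows the libraries held 13539665, 14690939, 16090350 and 16201443 counts in the controls and 16701599, 14568233, 11860451 and 10953338 counts after cisplatin, which is part of each library and not its full depth. Levels are given in CPM (counts divided by library size on a common scale) after TMM normalization, which rescales each library so that most genes keep their level, and values of 4 libraries are listed in the order of these numbers. The smallest level taken as measurable, 3 counts, was at most 0.266 CPM in a control and 0.238 CPM after cisplatin, and covers counting error only. The tissue label was checked with 10 proximal tubule genes, whose summed level lay between 58474 and 71780 CPM in the controls and at 1310, 1212, 8284 and 13548 CPM after cisplatin. In whole tissue, fewer cells of a type and less RNA per cell cannot be told apart.

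The libraries differed in ways that the labels do not describe. The second principal component of all genes, with 15.96% of the variance against 73.6% for the first, set control 5, cisplatin 4 and cisplatin 6 apart from the other 5 libraries. The 3 are referred to as the second library set and the 5 as the first, and the labels name no batch. Although male mice are stated, cisplatin 1 held only 2 counts of the Y-linked gene Kdm5d and 3 of Eif2s3y and cisplatin 3 held 0 of both, where every other library held at least 274 and 541. As these are the cisplatin libraries of the first library set, the lack of Y-linked counts and the set cannot be told apart after cisplatin. The calls of all members were repeated with cisplatin 4 and 6 alone against the 4 controls, with the first set alone (control 1, 2 and 3 against cisplatin 1 and 3), and with the set as a covariate. In the first set alone, cisplatin and the lack of Y-linked counts cannot be told apart, as all its controls held such counts.

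After cisplatin a small group of leukocyte receptor genes was many times higher, led by the neutrophil and monocyte activating receptor Trem1, the inhibitory myeloid receptor Cd300lf and the lipopolysaccharide co-receptor Cd14, while Ptprc, the phosphatase CD45 found on nearly all leukocytes, was lower, as were Cd8a of cytotoxic T cells and the myeloid genes Cd180, Clec12a and Lilra5. Of the 96 members, 71 passed the filter on low counts and were tested with edgeR's quasi-likelihood test. Of these, 13 were up-regulated, 18.3%, and 17 were down-regulated, 23.9%, with the thresholds set at 0.05 for the Benjamini-Hochberg adjusted p and at 1 for the log2 fold change in either direction. Over all 9141 genes tested the same calls were made for 19.2% and 15.7%. In 16 members every cisplatin library lay above every control and in 18 below, against 23.7% and 22.5% of all genes tested. The median log2 fold change was -0.05 over the members and 0.08 over all genes. It was -0.67 over the members with cisplatin 4 and 6 alone (0.02 over all genes), -0.31 without cisplatin 3 (0.04), -0.23 without cisplatin 1 (0.05), -0.21 without control 5 (0.09) and 0.54 with total library size (0.64). The direction of a count depends on the scaling: with total library size in place of TMM the median of all genes rose by 0.57 on the log2 scale, and 25 members were called up-regulated and 7 down-regulated, beside 34.7% and 8.78% of all genes. The down-regulated members no longer called under that scaling are Ptprc, Cd48, Cd27, Siglecg, Tlr9, Cd83, Cd302, Clec10a, Clec4a1 and Cd300lg. With cisplatin 4 and 6 alone 15 of 75 tested members were up-regulated and 24 down-regulated (21.4% and 20.5% of all genes), in the first library set alone 17 and 19 of 76 (17.6% and 16.3%), and with the set as a covariate 17 and 16 of 71 (19.3% and 16.6%). The covariate added the up-regulated Cd248, Cd163, Clec5a and Trem2 and ended the call of Tlr9. The first set alone added the up-regulated Ly6a, Cd163, Clec5a, Trem2 and Selp and the down-regulated Ly6c2, Cd37, Cd3g, Tlr11, Cd6 and Cd247. It ended the calls of Ly6g5b, Clec4a1, Cd48, Clec10a and Siglecg. With cisplatin 4 and 6 alone Cd274 and Cd1d1 were also up-regulated and Clec9a, Tlr7, Cd86, Cd59b, Cd4, Clec4a2, Cd3g, Tlr11, Cd6 and Cd247 down-regulated. Cd302, Tlr9 and Clec10a were no longer called there. Of the 30 members called, 21 were called whichever library was left out, and the 9 others are Tlr9, Cd27, Siglecg, Cd48, Cd302, Clec10a, Clec4a1, Cd300lg and Ly6d.

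The remaining 25 members did not pass the filter. There were 8 with no count in any library (Cd70, Fcer1a, Cd209e, Clec4b2, Clec4f, Clec3a, Ly6g6f and Ly6l), 12 with at most 5 counts in all, and 5 with more (Tlr11, Selp, Cd247, Cd3g and Cd6), whose values are given with their classes. Fcer1a, the antibody-binding chain of the mast cell IgE receptor, was the only mast cell or basophil member. Other genes overlap Cd27, Cd48, Cd82, Cd109, Cd180, Cd276, Cd300lf, Cd302, Ptprc and Trem1 among the called members, and how the counting treated such overlaps and strand is not given in the sources used here.

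**Figure D1:**
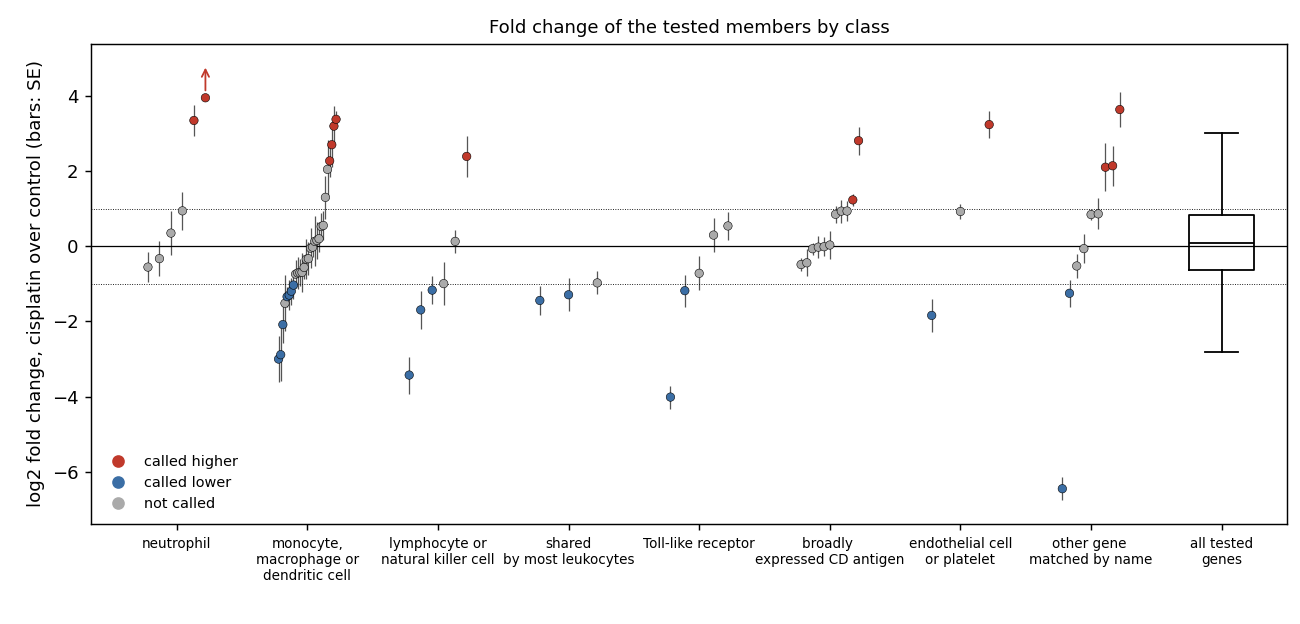
Log2 fold change of cisplatin over control (y axis) for the 71 tested members by class, with the standard error as bars, and a box plot of all 9141 genes tested at the right (median, quartiles, whiskers to 1.5 times the interquartile range); dotted lines mark a log2 fold change of 1 in either direction. Trem1, with 3 counts in all over the controls, stands at its value against 3 counts in a control library, with an arrow and no error bar. The 3 members shared by most leukocytes all lie below 0, and every other class spreads to both sides of it. The monocyte class has 4 higher and 7 lower members among 28 (19.2% and 15.7% of all genes tested).

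Among the neutrophil members, 2 of 6 were up-regulated and none was down-regulated, beside 19.2% and 15.7% of all genes tested. Trem1, an activating receptor that amplifies the response of neutrophils and monocytes (ENSMUSG00000042265, GRCm38 chr17:48232768-48246924, plus strand), had 0, 0, 0 and 3 counts in the controls and 113, 64, 50 and 53 counts after cisplatin. The cisplatin libraries were at 5.14, 3.52, 3.66 and 4.20 CPM. Every cisplatin library thus stood above a control group that was at or under the measurable level, and the mean of the cisplatin libraries was 15.5-fold above the highest level that 3 counts give in a control library (edgeR quasi-likelihood adjusted p = 0.000144). Cd300lf, an inhibitory receptor that also binds lipids of dying cells, was at 1.15, 0.319, 0.683 and 0.708 CPM in the controls and 6.96, 8.69, 4.69 and 9.04 CPM after cisplatin. The groups did not overlap, with a log2 fold change of 3.35 (SE 0.41, adjusted p = 0.000144, n = 4 and 4), and it was 3.26 with cisplatin 4 and 6 alone and 3.40 in the first library set.

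The other 4 neutrophil members did not pass the test. Clec5a, an activating myeloid lectin, followed the library set within the cisplatin group, at 3.50 and 3.25 CPM in the first set and 1.10 and 0.872 CPM in the second, against 0.886 to 1.59 CPM in the controls. Its log2 fold change of 0.95 over all libraries was 1.51 and called in the first set alone (adjusted p = 0.00665). With the set as a covariate it was 1.01 and called (adjusted p = 0.0471). With total library size it was 1.54 and called (adjusted p = 0.0294). Cd300ld and Treml2 had log2 fold changes of -0.55 and 0.35 with adjusted p values of 0.283 and 0.648. The median of the class was 0.65 on the log2 scale and became -0.29 with cisplatin 4 and 6 alone, so its sign rested on cisplatin 1 and 3, although Trem1 and Cd300lf were called in both. The summed level of the 6 genes was 7.70, 7.499, 9.48 and 6.84 CPM in the controls and 20.6, 22.2, 11.5 and 19.2 CPM after cisplatin, with no overlap. This separation rested on Trem1 and Cd300lf, without which the sums of the groups overlapped.

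Neutrophil genes outside the members were read from a list of 18, of which 12 stood in usable rows and 10 were tested. Of these, 6 were up-regulated and none was down-regulated (19.2% and 15.7% of all genes tested), with a median log2 fold change of 2.59. Il1r2, the interleukin-1 decoy receptor, had at most 3 counts in every control and 102, 122, 87 and 86 counts after cisplatin. Itgam, the integrin chain CD11b of neutrophils and monocytes, rose by 3.07 on the log2 scale (SE 0.37). Cxcr2, the receptor of neutrophil-attracting chemokines, rose by 2.68 (SE 0.38). S100a8, a calcium-binding protein abundant in neutrophils, rose by 3.34 (SE 0.87), with 4.11 when control 5 and 2.66 when cisplatin 6 was left out. Their levels stayed low, with no cisplatin library above 13.6 CPM for any of these 3 genes. The granule enzyme gene Mpo had no count in any library. Hdc, the gene of highest CPM in the list, is also made by other kidney cells and was at 25.0 to 68.4 CPM in the controls and 11.8 to 112 CPM after cisplatin.

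**Figure D2:**
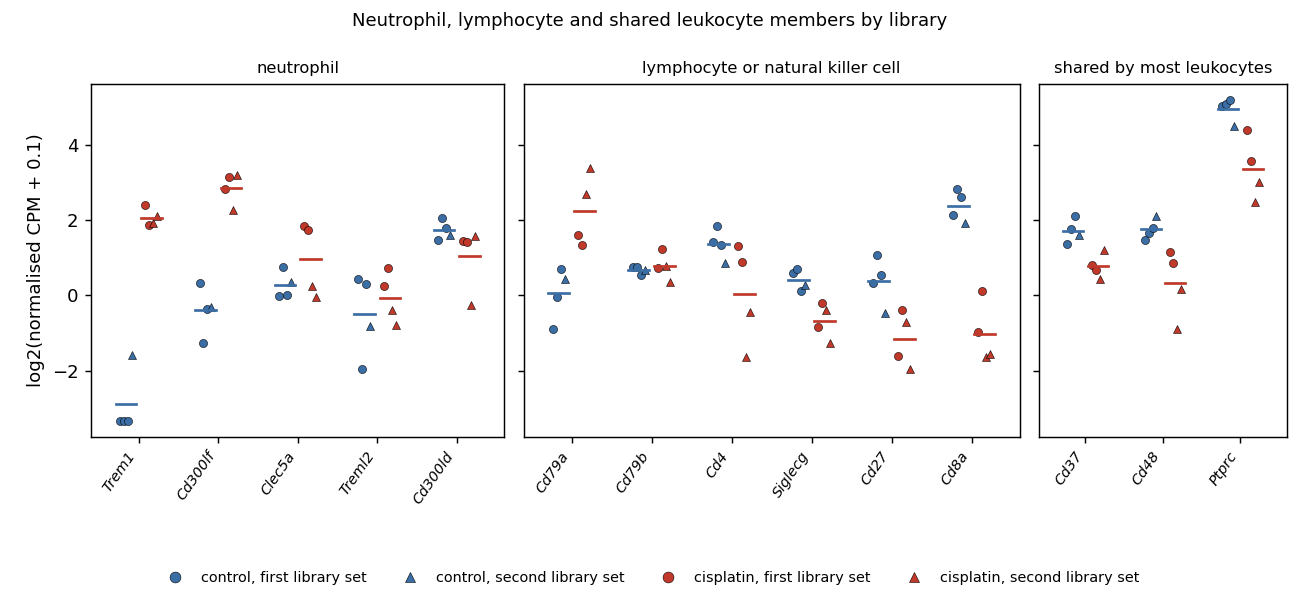
Level of 5 neutrophil, 6 lymphocyte or natural killer cell and 3 shared leukocyte members in each library, as log2(CPM + 0.1) on the y axis, with a line at the group mean; circles are the first and triangles the second library set. Trem1, Cd300lf and Cd79a lie higher and Cd8a, Siglecg and Ptprc lower after cisplatin with no overlap between the groups.

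Sequences upstream of the leukocyte members can be compared, since many myeloid and B-cell genes are known to carry sites for the factor PU.1 near their start. Promoter windows from RefSeq (GRCm38.p6, 250 bases before to 50 after an annotated start) were available for 68 of the 96 members and were searched on both strands for GAGGAAGT, which holds the core letters of such sites. The letters were chosen with the results known. They occur in a window of 13 of the 68 members, against 3.69% of the 27025 genes with a window. By the test, they occur in 4 of 8 up-regulated members with a window (Cd82, Cd300lf, Ly6f and Ly6g5b). Of these, Cd300lf alone is in a leukocyte class. The letters also occur in 1 of 14 down-regulated members (Tlr9) and 6 of 29 members that were tested and not called. Their share among all up- or down-regulated genes was not determined. A match is a description of the letters and not a bound site. The windows of Cd300lf, of the activating antibody receptor Fcgr4 and of the B-cell and myeloid tetraspanin Cd37 are shown because they hold the same 8 letters while Cd300lf alone among the 3 genes was called. Fcgr4 was at 6.46 to 8.42 CPM in the controls and 2.49 to 6.05 CPM after cisplatin (log2 fold change -0.56, adjusted p = 0.155). Cd37 had a log2 fold change of -0.97, missed only the fold threshold, and was called down-regulated by DESeq2 on the same genes. The 3 windows are printed in the direction of transcription, with the letters in capitals, as ACTTCCTC where they lie on the other strand.
Cd300lf, chr11:115133943-115134242, minus strand: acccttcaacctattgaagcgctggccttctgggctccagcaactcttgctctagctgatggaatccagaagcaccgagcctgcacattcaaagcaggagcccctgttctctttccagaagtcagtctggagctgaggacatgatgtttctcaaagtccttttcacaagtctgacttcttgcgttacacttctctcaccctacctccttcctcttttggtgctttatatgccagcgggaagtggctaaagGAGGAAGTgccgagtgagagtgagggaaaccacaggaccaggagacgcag
Fcgr4, chr1:171018676-171018975, plus strand: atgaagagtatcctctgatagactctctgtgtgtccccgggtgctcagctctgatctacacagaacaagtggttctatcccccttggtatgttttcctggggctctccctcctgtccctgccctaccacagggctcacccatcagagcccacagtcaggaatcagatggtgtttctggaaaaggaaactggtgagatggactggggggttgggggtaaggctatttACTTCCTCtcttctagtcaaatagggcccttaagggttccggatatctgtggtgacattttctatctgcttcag
Cd37, chr7:45238790-45239089, minus strand: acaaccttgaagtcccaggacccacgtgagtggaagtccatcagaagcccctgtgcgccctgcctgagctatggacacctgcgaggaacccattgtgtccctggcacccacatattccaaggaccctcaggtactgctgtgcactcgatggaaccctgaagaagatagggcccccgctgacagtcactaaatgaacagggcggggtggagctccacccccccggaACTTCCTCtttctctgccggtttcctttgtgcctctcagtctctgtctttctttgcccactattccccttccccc
The letters begin at base 251 of the Cd300lf window, at its annotated start, and at bases 227 and 226 of the Fcgr4 and Cd37 windows, just before the start.

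Monocyte, macrophage and dendritic cell members moved in both directions. Of 38 members in this class 28 were tested, and 4 were up-regulated, 7 down-regulated and 17 neither. The shares of 14.3% and 25.0% stand beside 19.2% and 15.7% of all genes tested. The median log2 fold change of the class was -0.33. That median was -0.90 with cisplatin 4 and 6 alone, -0.18 in the first set alone, -0.65 without cisplatin 1 and -0.07 without cisplatin 4, and turned to 0.27 with total library size, where that of all genes was 0.64. The summed level of the class was 174, 206, 179 and 249.6 CPM in the controls and 232, 207, 189.5 and 231 CPM after cisplatin, which overlap. Cd14, whose values follow, was a much larger part of this sum after cisplatin than in the controls. The overlap therefore does not mean that the other members kept their level.

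Cd14, which hands lipopolysaccharide to the Toll-like receptor 4 complex, was at 7.70, 6.86, 7.13 and 9.36 CPM in the controls and 58.8, 77.8, 85.8 and 102.5 CPM after cisplatin. All 4 cisplatin libraries stood far above the controls, and the log2 fold change of 3.39 (SE 0.21, adjusted p = 3.38e-06) was 3.61 with cisplatin 4 and 6 alone and 3.18 in the first set. Cd80, a costimulatory ligand of antigen-presenting cells, was near the measurable level in the controls, with 0, 4, 3 and 2 counts (0, 0.319, 0.228 and 0.157 CPM). After cisplatin it had 37, 39, 20 and 20 counts, at least 1.46 CPM in every library (edgeR adjusted p = 0.000936). Clec4n, the fungal sugar receptor Dectin-2, was at 0.354, 0.1595, 0.834 and 0.472 CPM in the controls and 4.87, 4.18, 1.10 and 1.90 CPM after cisplatin. Its groups did not overlap, and its log2 fold change of 2.71 (SE 0.60, adjusted p = 0.00453) was 3.23 in the first set and 1.69 with cisplatin 4 and 6 alone. Ly6i, a Ly6-family antigen of monocytes, was higher in the second set instead, with 1.91 and 1.70 CPM in cisplatin 1 and 3, 3.37 and 3.41 CPM in cisplatin 4 and 6, and 0.239 to 0.708 CPM in the controls (log2 fold change 2.28, SE 0.43, adjusted p = 0.00192). Trem2, a lipid-sensing receptor of macrophages, had a log2 fold change of 2.05 and narrowly missed the threshold (adjusted p = 0.0509), with 0, 0.0798, 0.152 and 0.865 CPM in the controls and 1.001, 0.990, 0.805 and 1.98 CPM after cisplatin. With DESeq2 on the same genes its adjusted p was 0.0369, and in edgeR with the set as a covariate 0.0218.

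Among the lower members of this class are Cd180, Clec12a and Lilra5. Cd180, a Toll-like receptor relative of B cells, macrophages and dendritic cells, was at 8.59, 6.38, 5.46 and 2.91 CPM in the controls and 1.001, 1.37, 0.220 and 0.159 CPM after cisplatin. No cisplatin library reached the lowest control, and the log2 fold change was -3.00 (SE 0.62, adjusted p = 0.00303). Clec12a, an inhibitory lectin that senses dead cells, was at 2.21 to 4.15 CPM in the controls and 0.409, 1.10, 0.146 and 0 CPM after cisplatin (log2 fold change -2.89, SE 0.71, adjusted p = 0.00749). Lilra5, an activating receptor of the leukocyte immunoglobulin-like family, was at 4.87, 4.95, 6.90 and 5.03 CPM in the controls and 2.05, 1.92, 0.366 and 0.634 CPM after cisplatin (log2 fold change -2.08, SE 0.49, adjusted p = 0.00627). In all 3 genes both second-set cisplatin libraries lay below both first-set ones, yet each was called in the first set alone as well. Cd83, a marker of activated dendritic cells, Clec10a and Clec4a1, lectins of macrophages and dendritic cells, and Cd302 fell by 1.34, 1.30, 1.19 and 1.03 on the log2 scale. Cd302 is also made outside the immune system, had an adjusted p of 0.126 with cisplatin 4 and 6 alone, and lost its call in 5 of 8 cases when 1 library was left out (-1.26 to -0.80, not called without control 1, 2 or 5 or cisplatin 1 or 3). Clec10a was not called without control 2 (-0.92) or cisplatin 1 (-1.25) nor in either comparison of the library sets, and Clec4a1 not without cisplatin 4 (-0.97) nor in the first set alone (-0.78). Without cisplatin 3 the change of Clec12a was -3.94.

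Lyz2, the lysozyme of macrophages and neutrophils, varied more within than between groups, at 20.5, 43.4, 24.3 and 72.7 CPM in the controls and 61.4, 33.3, 11.7 and 20.2 CPM after cisplatin (log2 fold change -0.34, SE 0.53, adjusted p = 0.623). Its direction turned in the first library set alone, to 0.62. The hemoglobin scavenger receptor Cd163 was at 0.550 to 2.31 CPM in the controls and 4.73, 4.07, 1.76 and 1.19 CPM after cisplatin (adjusted p = 0.0879). It was called at 1.58 both with the set as a covariate (adjusted p = 0.00623) and in the first set alone (adjusted p = 0.0192). The sialic acid receptor Siglec1 was at 1.57 to 9.40 CPM and 2.20 to 10.01 CPM. As with Cd163, both second-set cisplatin libraries lay below both first-set ones in 17 of the 28 tested members of this class, 60.7%, and above in 5, 17.9%, against 36.2% and 36.7% of all genes tested.

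**Figure D3:**
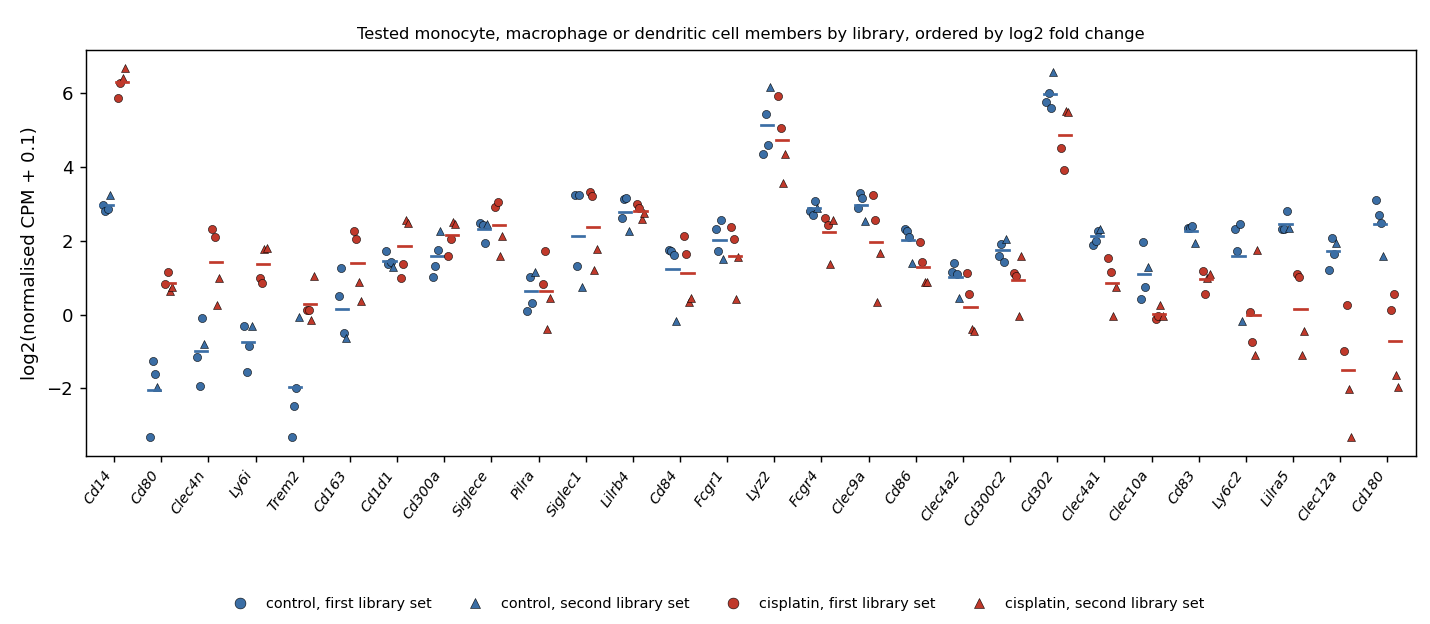
Level of each of the 28 tested monocyte, macrophage or dendritic cell members in each library, as log2(CPM + 0.1), in the order of the log2 fold change from highest to lowest; lines are group means, circles the first and triangles the second library set. Cd14 to Ly6i at the left stand above the controls, Clec12a and Cd180 at the right below, and between them the groups mostly overlap.

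Macrophage and monocyte genes outside the members also moved in both directions, with a median log2 fold change of -1.11. Of a list of 20, 11 were tested, with 2 up-regulated and 5 down-regulated (19.2% and 15.7% of all genes tested). Chil3, a chitinase-like protein of activated macrophages and neutrophils, rose by 3.74 on the log2 scale (SE 0.45) and Ms4a6d by 2.42 (SE 0.47). The chemokine receptors Cx3cr1 and Ccr2 mark resident and recruited monocyte-derived cells. Cx3cr1 fell by 3.06 (SE 0.60, and by 3.82 without cisplatin 1). Ccr2 fell by 1.85 (SE 0.47) and was not called with total library size (-1.26). Folr2, Ms4a7 and Mpeg1 fell by 1.81, 1.502 and 1.24. Mpeg1, a pore-forming protein of macrophages, had the list's highest mean CPM in the controls. It was at 36.6 to 54.5 CPM in the controls and 29.5, 23.04, 6.44 and 14.6 CPM after cisplatin, with no overlap. C1qb, a complement subunit made by kidney macrophages, was at 25.2 to 43.2 CPM in the controls and 24.5 to 43.6 CPM after cisplatin. It did not pass the test (adjusted p = 0.696). The list's summed level was 144, 157, 149 and 141 CPM in the controls and 135, 115, 69.4 and 117 CPM after cisplatin.

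Of 6 tested lymphocyte and natural killer cell members, 3 were down-regulated and 1 was up-regulated (15.7% and 19.2% of all genes tested). Cd8a, the co-receptor of cytotoxic T cells (ENSMUSG00000053977, GRCm38 chr6:71373427-71379173, plus strand), was at 4.25, 7.02, 5.99 and 3.70 CPM in the controls and 0.409, 0.990, 0.220 and 0.238 CPM after cisplatin. The groups were far apart, with a log2 fold change of -3.43 (SE 0.49, adjusted p = 0.000385), and the gene was called in the first set alone and with cisplatin 4 and 6 alone (-4.11 without cisplatin 3). Cd27, a costimulatory receptor of T and B cells, and Siglecg, an inhibitory receptor of B cells, fell by 1.69 (SE 0.52, adjusted p = 0.0212) and 1.17 (SE 0.36, adjusted p = 0.0237). Neither call held throughout when 1 library was left out, as Cd27 was not called without control 2 or 3 or cisplatin 1 or 6 (-2.11 to -1.41 over all 8 cases) and Siglecg not without control 1 or 2 or cisplatin 1 or 6 (-1.39 to -0.99), nor in the first set alone (adjusted p = 0.0552). Cd4, the co-receptor of helper T cells, which some macrophages also carry, was at 1.73 to 3.51 CPM in the controls and 2.37, 1.76, 0.220 and 0.634 CPM after cisplatin. It was not called over all libraries (log2 fold change -0.99, adjusted p = 0.183) but fell by 2.57 with cisplatin 4 and 6 alone (adjusted p = 0.00492).

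The T-cell receptor genes among the members were too low for the filter. Cd3g, a subunit of the CD3 complex, had 19, 22, 14 and 11 counts in the controls and 3, 3, 3 and 1 counts after cisplatin. Cd247, the CD3 zeta chain, had 12, 21, 12 and 10 counts against 9, 2, 2 and 4, and Cd6, a T-cell adhesion receptor, 19, 16, 10 and 6 counts against 8, 6, 3 and 4. Without the filter, all 3 were called down-regulated by edgeR, with adjusted p values of 0.000466, 0.0111 and 0.0333.

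Cd79a went the other way. Together with Cd79b it forms the signalling part of the B-cell receptor, and it was at 0.443, 0.877, 1.52 and 1.26 CPM in the controls and 2.91, 2.42, 6.37 and 10.3 CPM after cisplatin (log2 fold change 2.40, SE 0.55, adjusted p = 0.00567). Its partner Cd79b was at 1.37 to 1.59 CPM in the controls and 1.19 to 2.25 CPM after cisplatin (log2 fold change 0.13, SE 0.30, adjusted p = 0.739). The groups of Cd79a did not overlap, while those of Cd79b did. Ighm, the heavy chain of IgM, had the highest mean CPM in the controls among the lymphocyte genes outside the members. It was at 19.5, 19.9, 24.3 and 22.3 CPM in the controls and 2.18, 1.43, 2.12 and 3.89 CPM after cisplatin. The fall was of 3.17 on the log2 scale (SE 0.30).

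In the list of 21 lymphocyte genes outside the members, 7 had values and 6 were tested, with a median log2 fold change of -1.08. Of the 6, 3 were down-regulated and none up-regulated (15.7% and 19.2% of all genes tested). Besides Ighm, the down-regulated genes include Nkg7, a granule protein of natural killer and cytotoxic T cells. It had 12, 11, 20 and 13 counts in the controls and 3, 1, 1 and 0 after cisplatin. Lck, a kinase of T-cell receptor signalling, had a log2 fold change of 0.02 (SE 0.30).

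Of the 3 members shared by most leukocytes, 2 were down-regulated and all 3 lay below the controls without overlap (15.7% and 22.5% of all genes tested). Ptprc (ENSMUSG00000026395, GRCm38 chr1:138062861-138175708, minus strand) was at 32.4, 33.7, 36.5 and 22.4 CPM in the controls and 20.7, 11.7, 5.49 and 7.93 CPM after cisplatin. Its log2 fold change was -1.44 (SE 0.37, adjusted p = 0.0102), with -2.22 for cisplatin 4 and 6 alone and -1.14 in the first set, and with total library size as scaling it was -0.84 and not called (adjusted p = 0.0986). Cd48, an adhesion ligand of leukocytes, fell by 1.29 (SE 0.44, adjusted p = 0.0331), a call lost without any 1 of the controls or cisplatin 6 (-1.63 to -1.01 over all 8 cases) and in the first set alone (-0.70, adjusted p = 0.0675). Cd37 had a log2 fold change of -0.97 (SE 0.30, adjusted p = 0.0238), just short of the fold threshold. It was called by DESeq2 on the same genes (-1.02) and in the first set alone (-1.15).

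Red blood cell genes also differed between the groups. Of a list of 8, 6 were tested and 5 down-regulated (15.7% of all genes tested), with a median log2 fold change of -3.59. Their summed level was 124, 113, 327 and 181 CPM in the controls and 20.97, 17.7, 12.9 and 13.6 CPM after cisplatin. Slc4a1, an anion exchanger that the kidney's collecting duct makes as well, was the gene of highest CPM, at 94.04, 104, 122 and 124 CPM of these sums in the controls and 17.6, 15.1, 3.29 and 0.317 CPM after cisplatin. The globin gene Hba-a1 was at 17.4, 2.47, 122 and 42.7 CPM in the controls and 0.182, 0.165, 7.83 and 10.7 CPM after cisplatin (adjusted p = 0.0621, not called). Hba-a1 was thus higher in the second-set cisplatin libraries, whereas Slc4a1 and the summed level of the list were lower there. The called globin genes Hba-a2 and Hbb-bt fell by 5.06 (SE 1.36) and 4.94 (SE 1.35) but were not called with cisplatin 4 and 6 alone (-4.20 and -3.75, adjusted p = 0.0719 and 0.0643). The log2 fold change of Hba-a2 was -2.86 without control 3 and -5.95 without cisplatin 6, that of Hbb-bt -3.82 and -6.70. Alas2, a heme synthesis enzyme of red cell precursors, was at -3.60, with -1.98 without control 3 and -4.36 without cisplatin 1, and all 3 genes were still called in these cases. The part of blood content in the lower leukocyte genes was not tested.

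**Figure D4:**
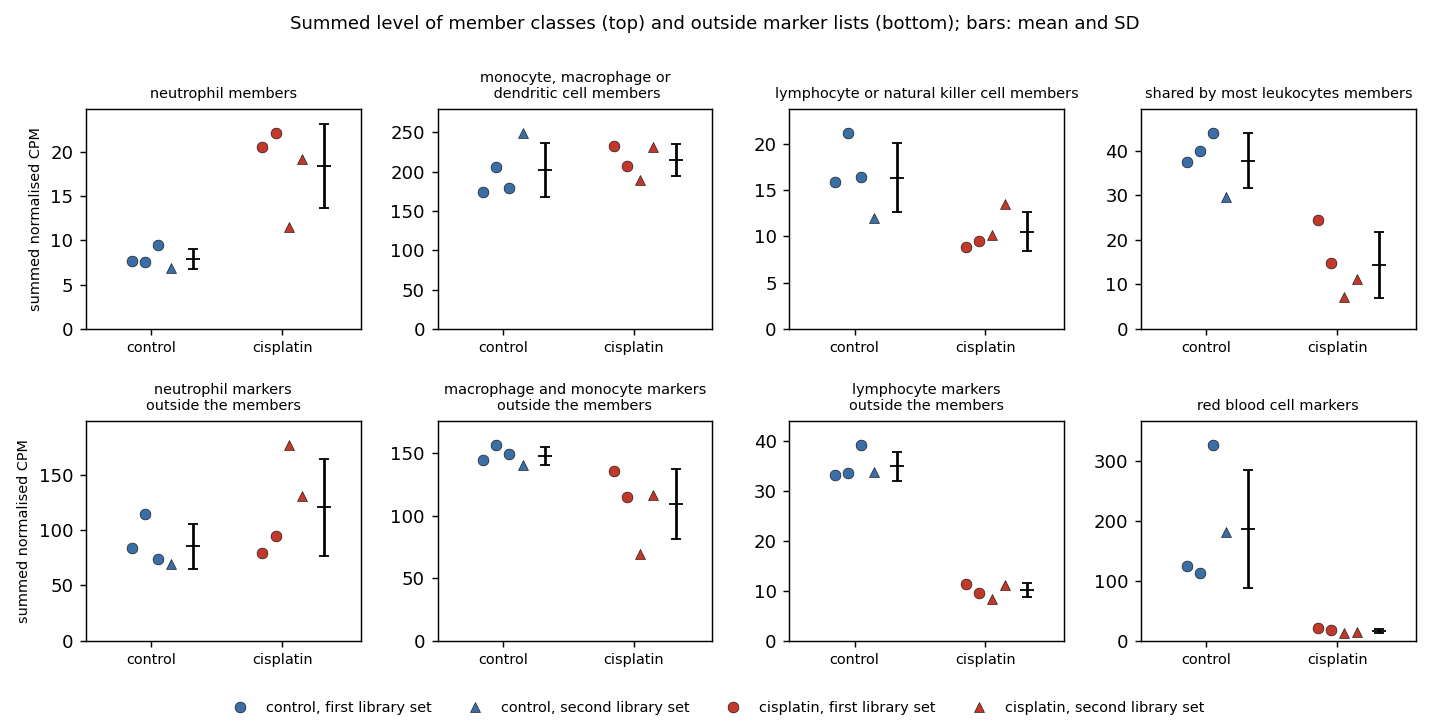
Summed CPM per library of 4 classes of members (top row) and of 4 lists of marker genes outside the members (bottom row), control and cisplatin, with the mean and SD of 4 libraries as a black bar; circles are the first and triangles the second library set. The neutrophil members sum to 11.5 to 22.2 CPM after cisplatin against 6.84 to 9.48 CPM in the controls. The shared leukocyte members and the lymphocyte and red blood cell markers lie lower. The monocyte class overlaps, with Cd14 a much larger part of it after cisplatin. Hdc and Mxd1, neither of them called, make up most of the neutrophil marker sum in every library.

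Among the Toll-like receptors, 2 of 5 tested were down-regulated and none was up-regulated, beside 15.7% and 19.2% of all genes tested. The median log2 fold change of the class was -0.72. Tlr12, which with Tlr11 senses a profilin of protozoan parasites (ENSMUSG00000062545, GRCm38 chr4:128615443-128618619, minus strand), was at 47.0, 39.5, 39.2 and 83.3 CPM in the controls and 2.41, 3.68, 3.44 and 3.41 CPM after cisplatin. The highest cisplatin library lay far under the lowest control, and the log2 fold change was -4.01 (SE 0.31, adjusted p = 1.05e-05). Tlr11 had 12, 58, 31 and 5 counts in the controls and 5, 6, 0 and 0 counts after cisplatin, did not pass the filter, and was called down-regulated without it (adjusted p = 0.00148). Tlr9, the endosomal receptor of bacterial DNA, fell by 1.18 (SE 0.43, adjusted p = 0.0435), a call that held with control 5 left out and was lost without any 1 of the other 7 libraries (-1.47 to -0.95 over all 8 cases), with cisplatin 4 and 6 alone (-0.87) and with the set as a covariate (adjusted p = 0.0746). The endosomal RNA receptors Tlr7 and Tlr13 and the lipopeptide receptor Tlr1 had log2 fold changes of -0.72, 0.54 and 0.30 and did not pass the test.

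Genes that carry the signals of these receptors were read from a list of 32, of which 20 were tested. Of the 20, 2 were up-regulated and 1 down-regulated, both shares below the 19.2% and 15.7% of all genes tested. The median log2 fold change was -0.11. Lbp, the serum protein that passes lipopolysaccharide to Cd14, rose by 1.602 (SE 0.31) and Bcl10, an adaptor on the way from C-type lectins and antigen receptors to NF-kappa B, by 1.48 (SE 0.20). Malt1, the protease that acts together with Bcl10, fell by 1.04 (SE 0.19) and lost its call without control 3 or cisplatin 6 (-1.16 to -0.90 over all 8 cases), with the set as a covariate (-0.95), with upper quartile normalization (-0.99) and with total library size (-0.48). Bcl10 was at 28.3 to 30.9 CPM in the controls and 60.2 to 103 CPM after cisplatin, and Malt1 at 48.5 to 81.8 CPM and 24.5 to 35.8 CPM, so that the groups of both genes were apart. Ly96, which joins Toll-like receptor 4, and Card9, the adaptor before Bcl10, had log2 fold changes of 0.88 and 0.85, and neither was called (adjusted p = 0.0598 and 0.0259).

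The most abundant members in the controls were of the endothelial or platelet class or the broadly expressed class. Per kilobase of gene length, Ly6a stood first in the controls at 708 CPM per kb, followed by Cd36 at 247, Ly6e at 242, Cd63 at 229, Cd81 at 180.4 and Cd164 at 144 CPM per kb. Ly6a, the stem cell antigen Sca-1 of endothelial and other cells, was at 657 to 961 CPM in the controls and 1391 to 1985 CPM after cisplatin without overlap, a log2 fold change of 0.93 (SE 0.20, adjusted p = 0.0035) that stayed under the fold threshold. It passed in the first set alone (1.01) and with total library size (1.51). Cd36, a fatty acid scavenger receptor, was at 981, 1041, 739 and 793 CPM in the controls and 145, 91.2, 428 and 329 CPM after cisplatin. It fell by 1.84 on the log2 scale (SE 0.44, adjusted p = 0.0064), and by 3.03 in the first set against 1.22 with cisplatin 4 and 6 alone.

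Of 11 tested broadly expressed CD antigens, 2 were up-regulated, 18.2%, near the 19.2% of all genes tested. None was down-regulated, against 15.7% of all genes, and the median log2 fold change was 0.04. Cd276, the B7-family checkpoint protein B7-H3, was at 0.974, 1.117, 1.74 and 0.708 CPM in the controls and 8.69, 11.7, 6.003 and 5.87 CPM after cisplatin (log2 fold change 2.82, SE 0.38, adjusted p = 0.000258). Cd82, a tetraspanin known as a metastasis suppressor, was at 110.0, 138, 118 and 154 CPM in the controls and 284, 285, 365 and 292 CPM after cisplatin (log2 fold change 1.24, SE 0.16, adjusted p = 0.000252). In both genes every cisplatin library was above every control. The tetraspanins Cd63 and Cd81 and the integrin-associated protein Cd47, a signal against phagocytosis, had log2 fold changes of -0.02, -0.06 and 0.04, and Cd274, the checkpoint ligand PD-L1, had 0.94 (SE 0.26, adjusted p = 0.0126), below the fold threshold.

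Endothelial and platelet members were few. Cd109, a surface protein that binds transforming growth factor beta, was at 1.95, 1.92, 1.06 and 0.629 CPM in the controls and 11.8, 16.8, 12.5 and 11.6 CPM after cisplatin (log2 fold change 3.25, SE 0.37, adjusted p = 0.000106). Selp, the P-selectin of activated endothelium and platelets, had 5, 1, 5 and 5 counts in the controls and 52, 22, 8 and 17 counts after cisplatin, and was up-regulated only in fits that admitted it (adjusted p = 0.0119 without the filter). None of 6 kidney endothelial genes outside the members was called, with a median log2 fold change of -0.54 and Kdr, a receptor of vascular endothelial growth factor, nearest to the threshold at -0.94 (adjusted p = 0.0152). Of 4 stromal genes, the collagens Col1a1, Col1a2 and Col3a1 were up-regulated (19.2% of all genes tested), by 3.05, 2.28 and 2.87 on the log2 scale.

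The 9 tested genes matched by name and placed in no other class held the member with the lowest log2 fold change of all 71. Clec2h, a C-type lectin-related gene of epithelia (ENSMUSG00000030364, GRCm38 chr6:128662385-128677374, plus strand), was at 108, 116, 99.4 and 102 CPM in the controls and 1.14, 1.16, 0.586 and 1.98 CPM after cisplatin. The fall was of 6.46 on the log2 scale (SE 0.31, adjusted p = 1.12e-06) and was about as large in either library set, at -6.38 with cisplatin 4 and 6 alone and -6.60 in the first set. Of the proximal tubule genes 10 of 10 were down-regulated too (15.7% of all genes tested), with a median of -4.03. Whether the fall of Clec2h is tied to theirs was not tested. Cd300lg, the nepmucin of capillary endothelium, fell by 1.25 (SE 0.36, adjusted p = 0.0156) and was not called without cisplatin 4 (-0.99). The Ly6-family genes Ly6f, Ly6g5b and Ly6d rose by 3.65 (SE 0.46), 2.15 (SE 0.53) and 2.11 (SE 0.64), Ly6f from 0.531 to 1.14 CPM in the controls to 10.5, 13.03, 10.1 and 3.65 CPM after cisplatin. Ly6d did not separate the groups, with cisplatin 1 at 0.819 CPM and the highest control at 1.26 CPM, and lost its call without control 3 (2.13) or without cisplatin 3 (1.74). Ly6g5b was not called in the first library set alone (1.33, adjusted p = 0.0537).

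**Figure D5:**
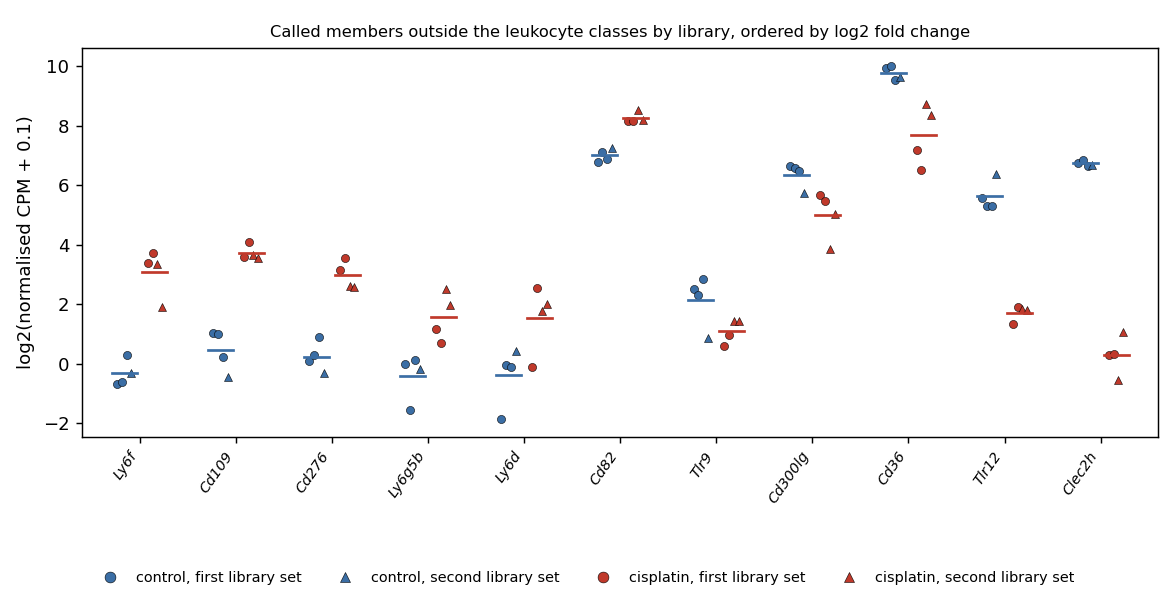
Level in each library, as log2(CPM + 0.1), of the 11 called members that are Toll-like receptors, broadly expressed antigens, endothelial or platelet genes, or matched by name alone, in the order of the log2 fold change; lines are group means, circles the first and triangles the second library set. Clec2h and Tlr12 fall from the level of abundant genes to between 0.586 and 3.68 CPM, while Cd36 differs between the library sets after cisplatin.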

How the data were processed

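According to the submitters' processing notes and the paper, the authors trimmed reads with fastp, aligned them with HISAT2 (build GRCm38) and deposited unnormalized counts, 1 column per library. The counting tool, its strand setting and its annotation are not given in the sources used here, and labels and methods name different library kits. Rows with 10 values (17835 of 53715) and 2 unnamed columns were not used. All 96 members were found in GENCODE M21, 92 at the same position.

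Counts were tested in R 4.3.3 with edgeR 4.0.16 (default filter, TMM, quasi-likelihood test, no covariates, Benjamini-Hochberg over 9141 genes), with DESeq2 1.42.0 as an alternative. SE is the absolute log2 fold change over the square root of F. The procedure was tested on simulated data. Fold bounds use 3 counts at the largest CPM this makes in a library of the group. The libraries are different mice.

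The members, classes, lists, motif and alternatives were chosen with earlier results of these data known. Named are, per class, up to 6 higher and 3 lower called members of at least 1 CPM in a group, by fold change, some fixed genes, and up to 4 called genes per outside list. The other genes described were named after their values were seen. Some genes that the rule names are not reported here.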

Additional observations from a re-analysis of the deposited data

Results flagged for a closer look

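Of 60 groups of 4 libraries, all but the Trem1 controls, with at most 3 counts in each library, were examined. In 3 groups a single library stood apart from the other 3 by more than the 95% limit of Dixon's test. By chance this happens in about 1 group of 20. Cd82 was at 365 CPM in cisplatin 4 and between 284 and 292 CPM in the other cisplatin libraries. Cd109 was at 16.8 CPM in cisplatin 3 and between 11.6 and 12.5 CPM in the others. Lilra5 was at 6.90 CPM in control 3 and between 4.87 and 5.03 CPM in the other controls. None of the 3 genes lost its call when that library or any other was left out.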

How the results depend on the processing

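The members called up-regulated numbered 13 and those called down-regulated 17. With total library size alone the counts were 25 and 7 (34.7% and 8.78% of all genes). With at least 10 counts in every library they were 2 and 9 of 43 tested (14.7% and 14.2% of all genes). Against a log2 fold change of 1 there were 10 up-regulated and 6 down-regulated (9.68% and 8.78% of all genes). Leaving out each library in turn gave 13 to 16 up-regulated and 11 to 20 down-regulated members of 72 to 75 tested, with 11 without control 2 (16.9% to 20.1% and 14.7% to 16.6% of all genes). Requiring 10 counts in every library left no called neutrophil or lymphocyte member (0 each), since Trem1, Cd300lf, Cd79a, Cd8a, Cd27 and Siglecg were not tested there, and 1 up-regulated monocyte member. With total library size 8 of 28 tested monocyte members were up-regulated, beside 34.7% of all genes. The down-regulated lymphocyte members (3 of 6 tested) numbered 6 of 9 by DESeq2 on genes of at least 2 counts in total (11.8% of all genes), 5 of 9 without a filter (9.13%), 5 of 9 in the first library set alone (16.3%), 7 of 9 with cisplatin 4 and 6 alone (20.5%), and 1 with total library size and against a log2 fold change of 1, and 1 to 5 when a library was left out (1 of 6 without control 2, and 5 of 8 without control 5, cisplatin 3 or cisplatin 4). Up-regulated signalling partners, 2 of 20 tested, numbered 5 with total library size (34.7% of all genes) and 4 with cisplatin 4 and 6 alone (21.4%). Against a log2 fold change of 1 there was 1 (9.68%). Lyz2 turned to 0.28 on the log2 scale with total library size, 0.62 in the first set and 0.10 without control 5 (-0.89 to 0.10 over the libraries left out), and Cd79b to -0.10 with cisplatin 4 and 6 alone and -0.074 without cisplatin 3 (-0.074 to 0.26); none was called over all libraries or under these settings. The cause of these changes was not tested.

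Both groups have a library numbered 1 and 1 numbered 3, but nothing says that they pair mice, and the deviations of same-numbered libraries correlated with r = 0.25 and 0.28, within the range of other pairs of the first set (0.15 to 0.36). With the replicate block the estimate rests on control 1 and 3 and cisplatin 1 and 3. It called 18 members up-regulated and 15 down-regulated (18.7% and 15.4% of all genes), 8 up-regulated and 6 down-regulated in the monocyte class, and 2 lymphocyte members down-regulated, ended the calls of Ly6g5b (0.95), Cd48, Siglecg, Clec10a and Clec4a1, and turned Lyz2 to 1.02, a call there (edgeR adjusted p = 0.00259).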
